A study of Homo sapiens with 12 samples.

Results

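The 5 genes described here encode surface proteins through which a tumour cell restrains immune cells: CD274 (PD-L1), CD276 (B7-H3), CD47, NT5E (CD73) and PVR (CD155). They were taken by symbol, and all 5 were found among the 20433 genes listed in at least 1 library. The libraries come from H1975, an established human lung adenocarcinoma line that carries a mutant epidermal growth factor receptor. All 12 libraries, controls included, received 0.5 µg/ml doxycycline for 2 days, which switched on a tetracycline-inducible hairpin. The control hairpin is labelled wild type for genotype and has 3 libraries, and 3 hairpins of 3 libraries each (sh-A, sh-B, sh-C) carry the genotype label of a KAT5 knockdown. Only sh-B and sh-C are named in the design text, as a pair of hairpins against TIP60, another name of KAT5. The sources used here do not say whether a line is 1 clone, or whether the libraries of a group are separate cultures, so the p-values reflect the spread between libraries, which may be technical.

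CD274 binds the receptor PD-1 on T cells and dampens their activation, and interferon gamma is its best known inducer. PVR is the ligand of the inhibitory receptor TIGIT and also of the activating receptor CD226. CD47 binds SIRPA on macrophages and blocks engulfment, NT5E converts extracellular AMP to immunosuppressive adenosine, and CD276 is a B7 family protein whose receptor is not settled. KAT5 (TIP60) is a histone acetyltransferase that acts in the NuA4 complex. Each hairpin group was compared with control, and the hairpin groups with one another, for the level of each of the 5 transcripts.

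KAT5 transcript, the target of the hairpins, averaged 28.9 ± 2.46 CPM (SD, n = 3) in control. CPM is the count of a gene scaled to the depth of its library. It averaged 19.4 ± 0.63 CPM with sh-A, 13.6 ± 0.99 with sh-B and 7.92 ± 0.54 with sh-C, and every hairpin library was below every control library. Expected counts summed to between 15631504 and 28073366 per library. The libraries sh-A 3 and sh-B 3 stood apart from their groups. Their root-mean-square log2 differences from their group mates were 0.67 and 0.69 for sh-A 3 and 0.47 and 0.48 for sh-B 3. The other pair in those groups differed by 0.36 and 0.32. For sh-C 1 the values were 0.40 and 0.40, against 0.33 for the other pair of that group and 0.32 to 0.38 among controls. Marker levels are counts per total count of the library, without the scaling between libraries that the CPM elsewhere has. On that scale epithelial markers were present in all libraries, with EPCAM at 411 CPM or more, although NAPSA and SFTPB stayed at or below 3.42 and 4.83 CPM. The leukocyte marker PTPRC was at or below 2.06 CPM, and CD3E, CD2, MS4A1 and TYROBP are not among the genes listed. Other markers of that list were present, with CSF1R at 14.8 to 29.2 CPM, LYZ at 5.98 to 9.80 and ITGAX at or below 5.61. Most of the summed leukocyte list (101 to 220 CPM) was CD68. That sum was 202 to 220 CPM in control, 124 to 161 with sh-A, 101 to 108 with sh-B and 139 to 164 with sh-C, and its part in the ligand results was not tested. The summed epithelial list was 5355 to 5821 CPM in control, 3327 to 3862 with sh-A, 4496 to 4702 with sh-B and 5488 to 5746 with sh-C, so it was lowest in sh-A, where the ligand genes were lowest too, and its part was not tested either. Summed fibroblast markers were at 13.7 to 26.0 CPM and endothelial markers at 1.51 to 16.1 CPM.

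With sh-A, 4 of the 5 ligand genes fell, and with sh-B 2 rose. With sh-C 0 passed by edgeR, 1 (NT5E) had an unadjusted p below 0.05, 0 passed by DESeq2 and 1 by limma on FPKM. By comparison, 12.3% of 15592 genes tested were called lower with sh-A and 15.0% were called higher with sh-B at an edgeR adjusted p below 0.05. With sh-C 9.79% were called higher and 7.16% lower. The 3 comparisons use the same control libraries, and values given with an SE or a 95% interval are log2 fold changes of counts unless stated otherwise. Libraries of control and sh-C are numbered 1 to 3, and those of sh-A and sh-B 3 to 5. If the numbers mark separate preparations, these and the hairpin cannot be fully told apart for sh-A and sh-B against control. In bulk RNA, fewer cells with a transcript and less transcript per cell cannot be told apart. The libraries sh-A 3, sh-B 3 and sh-C 1 were also left out together, a choice made after seeing the data. Of these, sh-C 1 stood apart little, at 0.40 from its group mates against up to 0.38 among controls. The ligand genes called were then 4 with sh-A, 3 with sh-B and 3 with sh-C. Over all genes the number called went from 4167 to 7231 with sh-A, 4688 to 7388 with sh-B and 2643 to 6725 with sh-C.

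**Figure D1:**
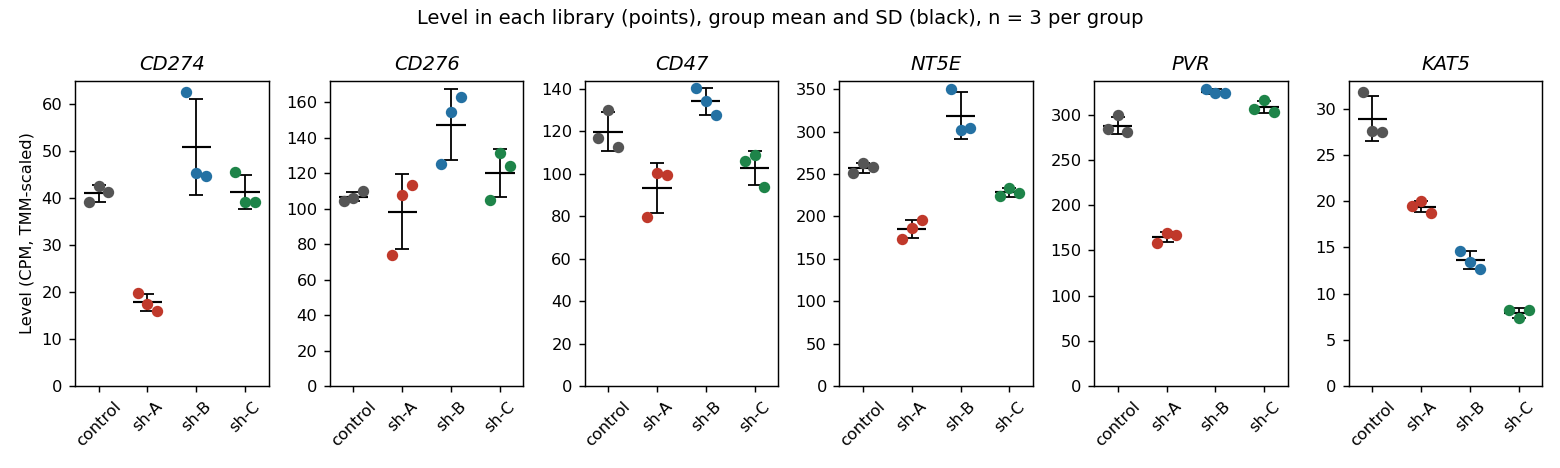
Level of each ligand gene and of KAT5 (CPM, vertical axis from 0) in the 12 libraries, with group mean and SD in black. The 3 sh-A libraries lie below the controls for CD274, CD47, NT5E and PVR, whereas CD276 in sh-A spans 73.97 to 113.14 CPM across the control range.

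CD274 showed the largest difference among the 5 genes. It was at 39.08, 42.64 and 41.28 CPM in control 1, 2 and 3 and fell to 19.75, 17.54 and 16 CPM in sh-A 3, 4 and 5. The highest sh-A library thus lay far below the lowest control. With sh-A 43.3% of the control level was left (log2 fold change -1.21, SE 0.13, edgeR adjusted p = 7.9e-05), and the call held under each of the 15 alternatives run. In sh-B 3, 4 and 5 the gene was at 62.53, 45.3 and 44.66 CPM, so that sh-B 3 alone stood clearly above the rest. The sh-B difference did not pass the test (0.31, 95% interval 0.03 to 0.59, edgeR adjusted p = 0.091), and without sh-B 3 it was 0.13. In sh-C 1, 2 and 3 CD274 was at 45.47, 39.08 and 39.18 CPM, overlapping control (0.01, 95% interval -0.27 to 0.29, edgeR adjusted p = 0.98).

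The promoter window of CD274 is shown because it is where interferon factors are known to act on this gene, beside that of PVR, the other gene whose level with sh-A was furthest from control. The windows run from 250 bases before to 50 after the annotated start, on the plus strand of RefSeq GRCh38.p14, at chr9:5450292-5450591 for CD274 and chr19:44643660-44643959 for PVR. The files themselves use another build. Capitals mark matches, on either strand, to GAAA followed after any 2 bases by GAAA (interferon-stimulated response element type, ISRE below), TTCNNNGAA (GAS type), CACGTG (E-box), TGANTCA (AP-1), GGAATG (TEAD) or ACGTG (core of the hypoxia response element, which lies within the E-box).
CD274: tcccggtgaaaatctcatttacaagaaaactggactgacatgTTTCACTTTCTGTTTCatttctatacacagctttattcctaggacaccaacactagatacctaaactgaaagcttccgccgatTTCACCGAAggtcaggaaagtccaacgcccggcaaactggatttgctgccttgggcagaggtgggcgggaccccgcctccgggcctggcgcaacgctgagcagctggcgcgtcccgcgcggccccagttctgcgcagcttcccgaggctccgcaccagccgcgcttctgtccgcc
PVR: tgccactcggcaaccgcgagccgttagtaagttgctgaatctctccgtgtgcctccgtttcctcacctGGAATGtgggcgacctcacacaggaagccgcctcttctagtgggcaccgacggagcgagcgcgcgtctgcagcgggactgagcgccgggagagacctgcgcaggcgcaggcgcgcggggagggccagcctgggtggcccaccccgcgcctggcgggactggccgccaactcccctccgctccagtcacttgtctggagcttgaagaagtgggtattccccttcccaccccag
The CD274 window holds 2 overlapping matches to the ISRE motif, on the opposite strand, which read TTTCACTTTC and TTTCTGTTTC, and the GAS-type match TTCACCGAA. The ISRE motif matched in 3.58% of 35097 such windows and TTCNNNGAA in 7.66%. Neither was matched in the other 5 windows of the ligand genes, of which CD276 has 2. In PVR the only match among these motifs was GGAATG, found in 14.04% of windows. CACGTG (7.25% of windows) and TGANTCA (7.71%) matched in none of the 6 windows, and ACGTG (21.41%) matched once in CD47 and once in the second window of CD276. GGGCGG, an SP1-type motif not capitalised, had 7 matches in the first window of CD276 and 6 in that of CD47, and 44.95% of windows hold it. CD274 was also the least GC-rich of the windows, at 57.3% against 67.3% to 80.3% in the others and a median of 58.7% over all windows. A match describes letters only, and no factor's binding was measured.

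PVR fell with sh-A and varied little within each group. Control libraries 1, 2 and 3 held 284.02, 299.43 and 281.23 CPM, compared with 158.32, 169.14 and 166.59 CPM in sh-A 3, 4 and 5. With sh-A it fell to 57.1% of control (-0.81, SE 0.06, edgeR adjusted p = 7.4e-06), a call that held under each of 15 alternatives. In sh-B 3, 4 and 5 PVR was at 329.04, 323.98 and 324.81 CPM, each above every control library. The difference of 0.18 (SE 0.06, edgeR adjusted p = 0.053) was close to the threshold. It passed with RLE size factors (0.047), with DESeq2 (0.0014) and with the 3 libraries left out together (0.018). In sh-C 1, 2 and 3 it was at 306.9, 316.41 and 303.08 CPM (0.10, 95% interval -0.04 to 0.24, edgeR adjusted p = 0.3).

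NT5E fell with sh-A and rose with sh-B. The enzyme's transcript was at 251.3, 263.34 and 257.65 CPM in control 1, 2 and 3. In sh-A 3, 4 and 5 it was at 173.56, 185.94 and 195.41 CPM (-0.48, SE 0.08, edgeR adjusted p = 0.001). In sh-B 3, 4 and 5 it was at 350.72, 301.47 and 303.75 CPM (0.31, SE 0.08, edgeR adjusted p = 0.011). No sh-A or sh-B library overlapped the controls, and both calls held under each of 15 alternatives. In sh-C 1, 2 and 3 NT5E was at 223.74, 233.69 and 227.67 CPM, each below every control library. That difference (-0.17, 95% interval -0.34 to -0.0027, edgeR adjusted p = 0.15) did not pass. It passed with limma on log2(FPKM + 0.1) (adjusted p = 0.035) and with the 3 libraries left out together (edgeR adjusted p = 0.031).

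CD47 fell with sh-A by less than CD274, PVR and NT5E. It was at 117.02, 130.29 and 112.46 CPM in control 1, 2 and 3 and ranged over 79.55, 100.31 and 99.5 CPM in sh-A 3, 4 and 5, with sh-A 3 the lowest. The log2 fold change was -0.36 (SE 0.10, edgeR adjusted p = 0.02). The call was lost without control 2, at -0.31 with adjusted p = 0.078, and in a fit of only the 6 libraries compared, at 0.055. In sh-B 3, 4 and 5 CD47 was at 140.63, 134.39 and 127.85 CPM, which overlaps control (0.16, 95% interval -0.06 to 0.39, edgeR adjusted p = 0.26). In sh-C 1, 2 and 3 it was at 105.99, 108.99 and 93.75 CPM (-0.22, 95% interval -0.44 to 0.0022, edgeR adjusted p = 0.16). With the 3 libraries left out together, the sh-C value was -0.24 (edgeR adjusted p = 0.022).

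CD276 was the exception with sh-A. It was at 104.43, 106.02 and 109.76 CPM in control 1, 2 and 3 against 73.97, 107.88 and 113.14 CPM in sh-A 3, 4 and 5, so that only sh-A 3 was low. The difference was -0.12 (95% interval -0.45 to 0.21, edgeR adjusted p = 0.6), and 0.05 without sh-A 3. In sh-B 3, 4 and 5 CD276 was at 124.96, 154.24 and 162.85 CPM, all above control, and the rise passed the test (0.47, SE 0.15, edgeR adjusted p = 0.035). That call was lost, at adjusted p of up to 0.13, without any 1 of control 1, control 2, control 3, sh-B 4 and sh-B 5, with upper-quartile scaling and with limma on FPKM. Without sh-B 3 it was 0.57 (adjusted p = 0.019). In sh-C 1, 2 and 3 CD276 was at 105.03, 131.18 and 123.96 CPM (0.17, 95% interval -0.16 to 0.50, edgeR adjusted p = 0.47). With the 3 libraries left out together, the sh-C value was 0.26 (edgeR adjusted p = 0.0029).

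The libraries sh-A 3, sh-B 3 and sh-C 1 each had the highest CD274 and the lowest CD276 of their group, a pattern noticed after the values were seen. Their part in the CD276 result with sh-C is given above by the value without them.

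**Figure D2:**
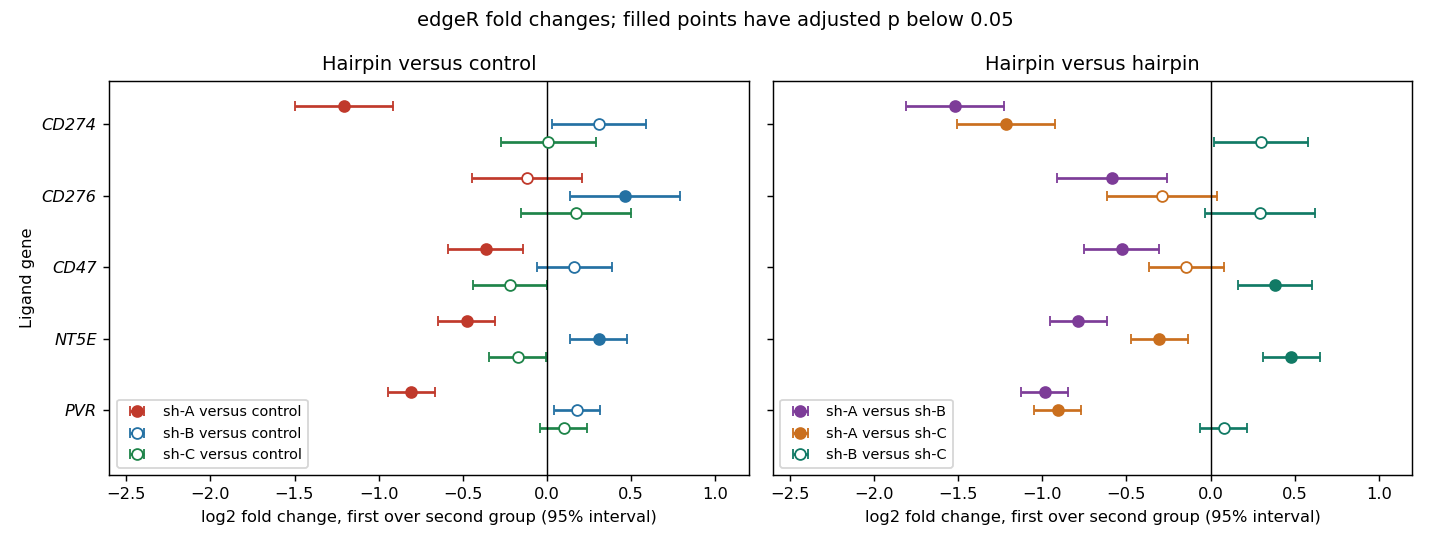
Fold changes of the 5 ligand genes (log2, horizontal axis) with 95% intervals, for each hairpin against control on the left and between hairpins on the right. Filled points have an edgeR adjusted p below 0.05, and all 5 points for sh-A against sh-B are filled and lie left of 0.

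The hairpins also differed from one another, in tests that do not use the control libraries to set the difference. Against sh-B, all 5 ligand genes were lower with sh-A, where 22.2% of genes tested were called lower. The log2 differences were -1.52 for CD274 (SE 0.13, edgeR adjusted p = 3e-06), -0.98 for PVR (SE 0.06, 3.2e-07) and -0.78 for NT5E (SE 0.08, 7.7e-06). They were -0.58 for CD276 (SE 0.15, edgeR adjusted p = 0.0067) and -0.53 for CD47 (SE 0.10, 0.0011). All 5 calls held under each of 16 alternatives.

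Against sh-C, 3 of the 5 were lower with sh-A, where 17.4% of genes were called lower: CD274 (-1.21, SE 0.13, edgeR adjusted p = 4.8e-05), PVR (-0.91, SE 0.06, 2.3e-06) and NT5E (-0.30, SE 0.08, 0.0099). The NT5E call was lost with limma on log2(FPKM + 0.1), at 0.091. CD276 (-0.29, 95% interval -0.62 to 0.04, edgeR adjusted p = 0.16) and CD47 (-0.14, 95% interval -0.37 to 0.08, adjusted p = 0.3) did not pass.

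Between the hairpins that the design text names, NT5E (0.48, SE 0.08, edgeR adjusted p = 0.00081) and CD47 (0.38, SE 0.10, 0.015) were higher with sh-B than with sh-C, where 13.0% of genes were called higher. The CD47 call was lost without sh-C 3 (0.32, adjusted p = 0.071). PVR did not differ detectably (0.08, 95% interval -0.06 to 0.22, edgeR adjusted p = 0.4). CD274 was at 0.30 (95% interval 0.02 to 0.58, adjusted p = 0.1) and CD276 at 0.30 (95% interval -0.03 to 0.62, adjusted p = 0.17). Both passed with the 3 libraries left out together. Of the hairpin groups, sh-A had the most KAT5 transcript left and the lowest mean of each ligand gene, and sh-C, with the least KAT5, lay between sh-A and sh-B for all 5.

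Levels of different genes were compared per length, as the FPKM values deposited. In control the order was NT5E (63.3 ± 1.56 FPKM, SD, n = 3), PVR (49.9 ± 1.16), CD276 (34.7 ± 0.69), CD47 (22.6 ± 1.45) and CD274 (11.1 ± 0.47), and no neighbours in this order overlapped. The order was the same with sh-B, from NT5E (76.4 ± 3.52 FPKM) to CD274 (13.4 ± 2.10), again with no overlap. With sh-A, CD276 (31.7 ± 7.21 FPKM) ranked above PVR (29.7 ± 1.71), but their libraries overlapped, so the exchange of places is within the spread. With sh-A CD274 was at 5.02 ± 0.41 FPKM, and CD47 was 3.65 times as high, against 2.03 times in control. With sh-C NT5E (53.0 ± 1.90 FPKM) and PVR (51.0 ± 1.15) overlapped, and the order was otherwise as in control.

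**Figure D3:**
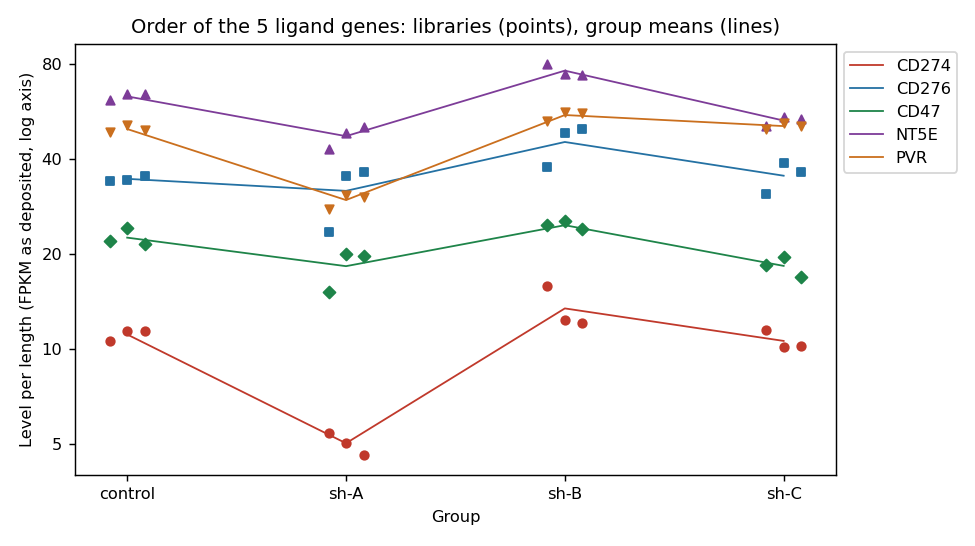
FPKM as deposited (log axis) of the 5 ligand genes in each library (points), with lines joining group means. NT5E is highest and CD274 lowest in all 4 groups, and the lines of PVR and CD276 cross at sh-A.

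The deposited length of a gene can differ between libraries where its transcripts differ in length. For CD276 it was 3066.79, 3048.04 and 3154 bases in control 1, 2 and 3. In the hairpin libraries it was 3201.87, 3248.29 and 3279.16 with sh-A 3, 4 and 5, 3092.27, 3208.81 and 3267.23 with sh-B 3, 4 and 5, and 3165.12, 3215.03 and 3269.10 with sh-C 1, 2 and 3. The controls sat at the low end, and sh-B 3 alone fell inside their range. The files assign 2 transcripts to CD276. In the GENCODE annotation the one for the longer protein form (CD276-202) has 3469 bases and the one for the shorter form (CD276-201) has 2738. The 9 hairpin libraries averaged 3216 bases against 3090 in the 3 controls, a difference of 127 bases (exact permutation test, two-sided, p = 0.018). It did not pass when adjusted over the 5 ligand genes (adjusted p = 0.091), and the comparison was chosen after the lengths were seen. For CD274, CD47, NT5E and PVR the same exact permutation test gave p = 0.32, 0.57, 0.19 and 0.72. The test takes the 9 libraries of 3 hairpins as separate units, although libraries of 1 hairpin may be alike. For CD276, sh-A, sh-B and sh-C taken singly against control gave p = 0.1, 0.2 and 0.1 by exact permutation. With 3 libraries against 3, no p below 0.1 is possible.

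In a mixed list of other ligands and immune regulators, calls with sh-B and sh-C were mostly lower. Besides inhibitory ligands it holds costimulatory ones such as ICOSLG and CD70, butyrophilins and the enzyme IDO1. The counts are therefore not of inhibitory ligands alone. Of 30 further genes listed, 24 had enough counts to be tested. With sh-A 2 rose and 0 fell, where 14.4% of all genes were called higher and 12.3% lower. With sh-B 4 rose and 9 fell, against 15.0% and 15.0% of all genes. With sh-C 1 rose, CD70 (0.74, SE 0.23, edgeR adjusted p = 0.046), and 8 fell, against 9.79% and 7.16%. Their median log2 fold changes were -0.16, -0.37 and -0.29, against 0.02, 0.00 and 0.00 over all genes tested. PDCD1LG2 (PD-L2), the second ligand of PD-1, was at 5.33 CPM in control and 4.85, 4.58 and 4.65 CPM with sh-A, sh-B and sh-C, and none of the 3 differences passed (edgeR adjusted p = 0.55, 0.33 and 0.42). NECTIN2, which like PVR binds TIGIT, rose with sh-B (0.40, SE 0.13, edgeR adjusted p = 0.033) and was at -0.18 with sh-A and -0.07 with sh-C. The NECTIN2 call was lost without any control library, sh-B 4 or sh-B 5, with upper-quartile scaling and with limma on FPKM, at up to 0.14.

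NECTIN3, a further PVR-binding adhesion protein, was at 0.78, 0.58 and 0.56 CPM in control and rose with sh-A to 8.67, 3.25 and 2.92 CPM (2.93, SE 0.44, edgeR adjusted p = 6e-04), or 2.24 without sh-A 3. It rose with sh-B to 2.77, 4.1 and 4.45 CPM (2.54, SE 0.44, edgeR adjusted p = 0.0012). VTCN1 (B7-H4) was at 3.62, 3.53 and 3.83 CPM in control and at 0, 0.08 and 0.18 CPM with sh-B (-5.30, SE 0.83, edgeR adjusted p = 0.00058). At such counts the fitted value moves with single libraries (-6.23 without sh-B 5). BTN3A2, a butyrophilin, fell with sh-C (-0.55, SE 0.11, edgeR adjusted p = 0.0083) and with sh-B (-0.35, SE 0.11, adjusted p = 0.03).

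Of 13 ligands of natural killer and T cell activating or adhesion receptors, 12 were tested. With sh-A 1 rose and 3 fell, where 14.4% of all genes were called higher and 12.3% lower. With sh-B 2 rose and 0 fell, against 15.0% and 15.0% of all genes, and with sh-C 2 rose and 0 fell, against 9.79% and 7.16%. As shares of the 12 genes, these counts of 1 to 3 are too few to set apart from all genes. MICB, a stress ligand of the receptor NKG2D, fell with sh-A from 16.38, 16.82 and 15.24 CPM in control to 8.34, 9.13 and 7.66 CPM (-0.95, SE 0.11, edgeR adjusted p = 1e-04). CD58, an adhesion ligand of CD2, also fell with sh-A (-0.48, SE 0.10, edgeR adjusted p = 0.0051), and ULBP1, another NKG2D ligand, rose (0.52, SE 0.13, adjusted p = 0.013). The ULBP1 call was lost without control 1 (0.059).

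A further list held 28 genes of interferon signalling or of PD-L1 regulation. Of these 7 fell and 0 rose with sh-A, 8 rose and 5 fell with sh-B, and 5 rose and 4 fell with sh-C. Over all genes 12.3% were called lower and 14.4% higher with sh-A, 15.0% higher and 15.0% lower with sh-B, and 9.79% higher and 7.16% lower with sh-C. The 5 lower calls with sh-B are not far from the share over all genes. Whether the other counts of the 28 genes differ from those shares was not tested. The median log2 fold changes were -0.01, -0.02 and 0.02. FOSL1, an AP-1 subunit, was at 350.59, 350.67 and 301.71 CPM in control and fell to 148.18, 111.04 and 102.19 CPM with sh-A (-1.47, SE 0.15, edgeR adjusted p = 4.4e-05). It rose with sh-B (0.89, SE 0.15, edgeR adjusted p = 0.00091) and with sh-C (0.83, SE 0.15, adjusted p = 0.0052). EGFR, the oncogenic receptor of this line, fell with sh-A (-0.77, SE 0.15, edgeR adjusted p = 0.0026) and rose with sh-B (0.63, SE 0.15, adjusted p = 0.0072).

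CMTM6, a membrane protein that shields PD-L1 from lysosomal breakdown, was at 147, 153.15 and 134.35 CPM in control. It was at 125.05, 123.72 and 118.15 CPM in sh-A 3, 4 and 5 (-0.24, SE 0.07, edgeR adjusted p = 0.02), a call lost without control 1, control 2 or sh-A 5 and with only the 6 libraries compared, at up to 0.076. In sh-B 3, 4 and 5 it was at 182.59, 177.11 and 183.29 CPM, above every control library (0.32, SE 0.07, edgeR adjusted p = 0.0039). STAT3 also fell with sh-A (-0.38, SE 0.11, edgeR adjusted p = 0.021), a call lost without control 1 or control 3, with only the 6 libraries compared and with limma on FPKM, at up to 0.069.

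IRF1, a direct activator of CD274, was at 41.48, 42.57 and 47.56 CPM in control and fell to 28.81, 28.44 and 30.86 CPM in sh-B 3, 4 and 5 (-0.58, SE 0.09, edgeR adjusted p = 0.00049). With sh-A it was at 33.47, 39.01 and 40.59 CPM (-0.22, SE 0.09, edgeR adjusted p = 0.084), and with sh-A it was higher than with sh-B (0.36, SE 0.09, adjusted p = 0.0049). STAT2, a factor of type I interferon signalling, fell with sh-B (-1.01, SE 0.13, edgeR adjusted p = 0.00014) and with sh-C (-0.81, SE 0.13, adjusted p = 0.0033). It also fell with sh-A (-0.41, SE 0.12, edgeR adjusted p = 0.031). The sh-A call was lost without control 3 or sh-A 3, with upper-quartile scaling, with only the 6 libraries compared and with limma on FPKM, at up to 0.13. JAK2, the kinase of the interferon gamma receptor, fell with sh-C (-0.44, SE 0.12, edgeR adjusted p = 0.024), a call lost without control 1, control 3, sh-C 2 or sh-C 3, at up to 0.093. CD274 was lowest with sh-A and IRF1 lowest with sh-B, and each sh-A library also had less IRF1 than every control library. A part of IRF1 in the CD274 result was not tested. MYC averaged 358 CPM in control, 673 with sh-B and 1246 with sh-C. In sh-A 3, 4 and 5 it was at 561.49, 319.23 and 288.74 CPM, with sh-A 3 above and the other two below every control library (0.12, edgeR adjusted p = 0.74). Without sh-A 3 the direction turned (-0.24, adjusted p = 0.34). MYC rose with sh-B (0.91, SE 0.24, edgeR adjusted p = 0.012), which was no longer called without control 3 or sh-B 3 (up to 0.052), and with sh-C (1.80, SE 0.24, adjusted p = 0.0028).

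**Figure D4:**
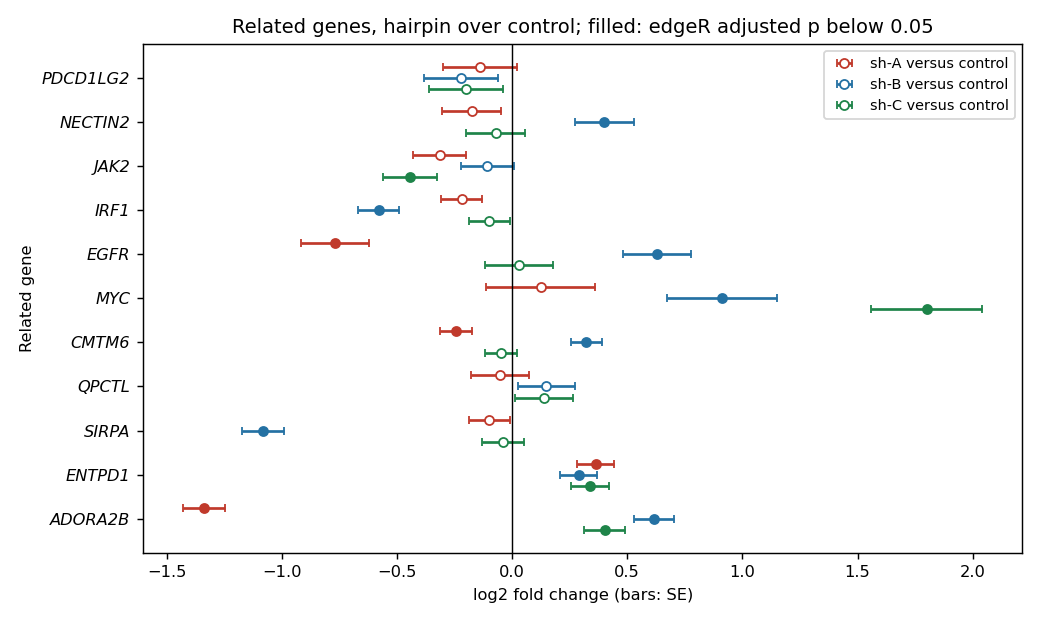
Log2 fold changes (points) and SE (bars) of 11 genes tied to the ligands, for each hairpin against control. ADORA2B, EGFR and CMTM6 lie left of 0 with sh-A and right of 0 with sh-B, whereas SIRPA and IRF1 are lowest with sh-B.

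In the adenosine pathway, 21 of 25 genes were tested. With sh-A 4 rose and 6 fell (14.4% and 12.3% of all genes), with sh-B 5 rose and 6 fell (15.0% and 15.0%), and with sh-C 4 rose and 2 fell (9.79% and 7.16%). The 4 higher calls with sh-A and the 2 lower calls with sh-C are close to the shares over all genes. ADORA2B, a receptor for the adenosine that NT5E makes, was at 50.63, 44.69 and 45.79 CPM in control and fell to 18.93, 17.97 and 18.88 CPM in sh-A 3, 4 and 5 (-1.34, SE 0.09, edgeR adjusted p = 2.5e-06). It rose with sh-B to 76.4, 68.05 and 71.96 CPM (0.62, SE 0.09, edgeR adjusted p = 0.00031). With sh-C it rose by 0.40 (SE 0.09, edgeR adjusted p = 0.011), a call lost without control 2, control 3, sh-C 2 or sh-C 3, at up to 0.063. PANX1, a channel that releases ATP, fell with sh-A (-0.76, SE 0.08, edgeR adjusted p = 4.4e-05). It rose with sh-B (0.28, SE 0.08, edgeR adjusted p = 0.016), a call not checked under the alternatives, and was at 0.00 with sh-C. ENTPD1 (CD39), which makes the AMP that NT5E uses, rose with sh-A (0.36, SE 0.08, edgeR adjusted p = 0.0061). It rose by 0.29 with sh-B (adjusted p = 0.018) and 0.34 with sh-C (adjusted p = 0.017), and these calls were lost with limma on FPKM and without control 2 or control 3, among others, at up to 0.089 and 0.1. ADA, which breaks adenosine down, fell with sh-B (-1.24, SE 0.12, edgeR adjusted p = 2.9e-05).

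For CD47, 11 of 12 partner and maturation genes were tested, of which 2 rose and 2 fell with sh-A, 0 rose and 2 fell with sh-B, and 1 rose and 0 fell with sh-C. Over all genes 14.4% rose and 12.3% fell with sh-A, 15.0% rose and 15.0% fell with sh-B, and 9.79% rose and 7.16% fell with sh-C, so these counts are near the background. SIRPA, the receptor of CD47, was transcribed in the tumour cells themselves, at 93.45, 89.83 and 91.22 CPM in control. It fell with sh-B to 38.61, 42.72 and 48.27 CPM (-1.08, SE 0.09, edgeR adjusted p = 1e-05) and was at -0.10 with sh-A and -0.04 with sh-C (adjusted p = 0.46 and 0.81). QPCTL, the enzyme that modifies CD47 so that SIRPA can bind it, was at 11.3 CPM in control and 10.9, 12.5 and 12.4 CPM with sh-A, sh-B and sh-C (edgeR adjusted p = 0.79, 0.41 and 0.48). ITGB1, an integrin subunit, fell with sh-A (-0.70, SE 0.08, edgeR adjusted p = 0.00013). The T cell receptors of the ligands were near 0, with PDCD1 at or below 0.242 CPM, TIGIT at or below 0.084 and CD226 at or below 0.179 in any library, per total count and unscaled, as for the other markers.

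Across the 12 libraries, each ligand gene was matched to the genes with the most alike pattern, by the root-mean-square difference of log2 CPM centred on each gene's mean, among 11325 other genes averaging at least 5 CPM. For CD274 these were PRDM8 (0.12), CCBE1 (0.13) and NIPA2 (0.13), and for PVR they were GULP1 (0.07), TMEM51 (0.08) and MALT1 (0.09). For NT5E they were HERC4 (0.06), EIF3J-AS1 (0.08), an antisense gene whose reads cannot be told from its partner's, and SERPINB5 (0.08). For CD47 they were IFIT5, RBMS2 and MCU (0.08 to 0.09), and for CD276 LOC100129034, RAB1B and SLC39A9 (0.08). Among the ligand genes, NT5E ranked 62 in likeness to CD47 and PVR ranked 96 in likeness to CD274. The other 8 pairs ranked between 610 (NT5E for CD274) and 4118 (PVR for CD47).

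Neighbouring genes were taken from the RefSeq order. Over all genes 26.7% were called in either direction with sh-A, 30.1% with sh-B and 17.0% with sh-C. So few neighbours were tested that the calls below cannot be set apart from those shares. Of the 3 protein-coding genes on each side of CD274, 5 were tested, and with sh-A only ERMP1 fell (-0.35, edgeR adjusted p = 0.034). PLGRKT, next to CD274 on one side, was at -0.06 (edgeR adjusted p = 0.81), and on the other side lies PDCD1LG2, given above. Of the 6 neighbours of PVR 4 were tested, and 0 of these 4 passed with sh-A, where CEACAM19 was at -0.41 (edgeR adjusted p = 0.13) and BCL3 at 0.31 (adjusted p = 0.29). BCL3 fell with sh-B (-0.78, edgeR adjusted p = 0.015). Of 5 neighbours of CD47 tested, CBLB fell with sh-B (-1.22, edgeR adjusted p = 6.9e-05) and with sh-C (-0.52, 0.022), and BBX fell with sh-C (-0.40, 0.024). Of 4 neighbours of NT5E tested, TBX18 was called higher with sh-A (7.53, edgeR adjusted p = 0.0019) and SNX14 fell with sh-C (-0.42, adjusted p = 0.019). The TBX18 value was the same, -1.95, with sh-B and sh-C (edgeR adjusted p = 0.62 and 0.64). That points to few or no counts there, so the size of its sh-A value is not reliable. Of 2 neighbours of CD276 tested, 0 passed in any of the 3 comparisons with control.

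In the authors' deposited tables the log2 ratios of CD274 were -1.21, 0.31 and 0.01 with sh-A, sh-B and sh-C. In the authors' deposited tables the probability named PPEE was 0 for CD274, NT5E and PVR with sh-A, 0.0738 for CD47 and 0.983 for CD276. With sh-C the authors' deposited table gives a PPEE of 7e-14 for NT5E at a log2 ratio of -0.17, and 0.0108 for PVR at 0.10, and with sh-B one of 5.31e-14 for PVR at 0.18. In these 3 cases the edgeR test above did not pass. With sh-B the authors' deposited table gives a PPEE of 0.00336 for NT5E, 0.00379 for CD276, 0.364 for CD47 and 0.846 for CD274.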

How the data were processed

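RNA was measured as poly-A selected libraries, per the labels' protocols, whose steps do not mark strand. The authors deposited an expected count, an FPKM value and a gene length for each gene and library; Bowtie2, HISAT, RSEM and build hg19 are named in the submitters' processing notes, with versions and roles not given in the sources used here. The authors' deposited tables also hold group means as a normalised signal, log2 ratios and PPEE, a probability whose tool the sources used here do not name. Gene IDs were named from those tables (15620) and from RefSeq GRCh38.p14 (4734), and 79 stayed unnamed. Columns of samples outside the series numbered 0.

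Expected counts were rounded and tested by quasi-likelihood in edgeR 4.0.16 (R 4.3.3), in 1 fit of 4 group means over 12 libraries, after filtering at a minimum count of 10 and TMM scaling. In all, 15592 genes were tested in 6 comparisons, with Benjamini-Hochberg adjustment over all of them and a threshold of 0.05. DESeq2 1.42.0, limma 3.58.1 on log2(FPKM + 0.1) or log2(FPKM + 1), other scalings and filters, a stricter minimum count of 50 and fits without single libraries were alternatives. The fit was tested on simulated data. From each list, genes called against control were eligible to be named, up to 6 by p-value per comparison, besides 12 named whatever their result, of which 1 is not reported here. The ligand genes, lists and rules were chosen with earlier results of these data known. Deviations of sh-A and sh-B libraries with the same replicate number (3, 4 and 5) correlated over genes at 0.298, 0.12 and 0.219. Across numbers, sh-A 4 with sh-B 5 gave 0.131 and sh-A 5 with sh-B 4 gave 0.154. The numbers 4 and 5 were thus not clearly paired, whereas sh-A 3 and sh-B 3 deviated alike. No call of a ligand gene between sh-A and sh-B changed with the replicate number as a block.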

Additional observations from a re-analysis of the deposited data

Results flagged for a closer look

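NT5E is listed because its differences from control had opposite signs with sh-A and sh-B, each past the threshold, and the hairpins differed from each other by -0.78 on the log2 scale (edgeR adjusted p = 7.7e-06), lower in 3 of 3 sh-A libraries than in any sh-B library.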

How the results depend on the processing

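Of 30 differences of the ligand genes, 19 stayed on the same side of the threshold under every alternative run, and 11 crossed the threshold at least once. With only the 6 libraries compared, CD47 with sh-A (-0.36) was no longer called. CD276 with sh-B was no longer called with upper-quartile scaling (0.42) or limma on log2(FPKM + 0.1) and log2(FPKM + 1) (0.38 and 0.37). PVR with sh-B was called with RLE size factors (0.18) and DESeq2 (0.18). With limma on log2(FPKM + 0.1) and log2(FPKM + 1), NT5E was called with sh-C (-0.26 and -0.25) and no longer between sh-A and sh-C (-0.17 and -0.16), and CD274 was called between sh-B and sh-C (0.33 and 0.31). Leaving out single libraries gave -0.43 to -0.26 for CD47 with sh-A, 0.38 to 0.57 for CD276 with sh-B and 0.32 to 0.42 for CD47 between sh-B and sh-C. Without the libraries sh-C 1, sh-B 3 and sh-A 3, a choice made after seeing the data, further calls were PVR with sh-B (0.17), CD276, CD47 and NT5E with sh-C (0.26, -0.24 and -0.16), CD276 between sh-A and sh-C (-0.21), and CD274 and CD276 between sh-B and sh-C (0.20 and 0.31). MYC with sh-A changed sign there, to -0.24 (adjusted p = 0.01), from 0.12. The genes called then went from 4167 to 7231 with sh-A, 4688 to 7388 with sh-B, 2643 to 6725 with sh-C and 4344 to 7307 between sh-B and sh-C. With sh-C the number was 4862 in the fit of 6 libraries and 766 to 2762 without single libraries. The cause was not tested.

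The replicate block for sh-C and control, whose numbers did not pair the libraries (correlations of -0.058, -0.132 and 0.13), gave 3670 genes called and 0 ligand genes called. With the replicate block for sh-A and sh-B 7535 genes were called against 7410. Each ligand gene had at least 361 counts in every library.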
